A study of Mus musculus with 2 samples.

Results

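The lysosome genes are 36 genes chosen by symbol from the 31053 genes listed for both libraries, and all 36 were found. They comprise 10 proteases, 13 lipid and glycan hydrolases with their activator and lipid-transfer proteins, 8 membrane proteins, 4 subunits of the proton pump and 1 transcription factor, Tfeb. They were measured in immune cells of mouse pancreatic islets. Islets of male C57BL/6J mice on chow diet were pooled, 6 to 8 mice to a pool, and live cells that were negative for DAPI and Epcam and positive for CD45 were sorted. Each pool gave 1 droplet library that counts the 3' ends of transcripts by unique molecular identifier (UMI). One library carries the time label 1 week and the other 12 weeks. What is counted in weeks is not in the labels, and with 1 library a label, time cannot be told apart from the pool, the preparation or the library. All mice shared strain, sex and diet, and the labels name no treated group.

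Lysosomes are acidic organelles in which macrophages break down what they engulf. Acid hydrolases do the cutting, a vacuolar ATPase pumps protons in, heavily glycosylated membrane proteins line the inner face, and activators present lipids to the enzymes. In antigen-presenting cells the same proteases trim the invariant chain and antigens for MHC class II. Tfeb and its relatives bind E-box motifs, and many lysosomal promoters hold them.

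After filtering, 1340 cells of the 1-week library and 1752 of the 12-week library remained. Macrophages were defined as cells in which the complement genes C1qa, C1qb and C1qc together had 5 UMIs or more. They numbered 1243 (92.8%) and 1620 (92.5%), with medians of 7401 and 6891 UMIs a cell. Cells with fewer C1q UMIs were called B, T or dendritic when they carried at least 3 UMIs from at least 2 marker genes of that type and of no other. This gave 23 and 26 B cells, 8 and 28 T cells, and 9 and 24 dendritic cells, at 1 week and 12 weeks respectively. Their median depths were 5023 and 3101 UMIs in B cells, 3016 and 3395 in T cells, and 8281 and 7590 in dendritic cells. The T cells of the 1-week library held only 26690 UMIs in all, so that a single UMI there weighs more than in the other sums. Levels are given as counts per 1000000 (CPM), the UMIs of a gene per 1000000 UMIs of the summed cells of a class. Macrophage markers outside C1q summed to 30807 and 34161 CPM in macrophages and to between 187 and 1472 in the other 6 sums. Mrc1, one of these markers, had no UMI in 5 of those 6 sums, and Adgre1 had none in 4 of them. B, T and dendritic markers each reached at most 37 CPM in macrophages. Plasma cell markers summed to 5840 and 408 CPM in B cells at 1 week and 12 weeks, beside 216 and 187 in macrophages. NK and innate lymphoid markers summed to 344 and 621 CPM in dendritic cells, beside 254 and 306 in macrophages. Near the macrophage limit, 25 and 18 macrophages held 5 to 9 C1q UMIs, and 24 and 21 cells outside the class held 2 to 4. Of the dendritic cells, 3 and 10 held fewer than 5 marker UMIs. A further 34 and 23 macrophages also met the marker rule of another type. Only 3 barcodes occurred in both libraries.

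The promoters of the members are shown here as a description of sequence. Whether a motif has a part in the ratios between the time labels, given further below, was not tested. RefSeq promoter windows on GRCm38.p6, from 250 bases before to 50 after a transcript start, were given for 32 members. The E-box CACGTG, which reads the same on both strands, stood in a window of 10 of the 32 (31.3%). That compares with 8.09% of all 27025 genes with a window, 12.5% of the 1982 genes tested between cell classes and 11 of 40 other lysosomal genes (27.5%). The longer form TCACGTGA, which contains CACGTG, stood in 5 of the 32 (15.6%), against 1.12% of all genes and 2.52% of those tested. In the 5 stretches below, each 30 bases long and read 5′ to 3′ on the gene's strand, capitals mark TCACGTGA.
Ctsa: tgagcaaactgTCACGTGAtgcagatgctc
Ctsd: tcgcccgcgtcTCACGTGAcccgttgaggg
Mcoln1: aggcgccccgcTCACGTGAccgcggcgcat
Atp6v1a: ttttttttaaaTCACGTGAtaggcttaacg
Gla: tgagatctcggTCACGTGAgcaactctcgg
Their positions are chr2:164833749-164833778 on the plus strand for Ctsa, chr7:142387908-142387937 on the minus strand for Ctsd and chr8:3500462-3500491 on the plus strand for Mcoln1. For Atp6v1a it is chr16:44139373-44139402 on the minus strand, and for Gla chrX:134601182-134601211 on the minus strand. In the GENCODE annotation the Ctsa, Ctsd and Mcoln1 stretches fall in a non-coding part of an exon of the gene itself. The Atp6v1a stretch lies in the gene outside its exons, and the Gla stretch overlaps a non-coding exon part of the neighbouring gene Hnrnph2.

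Lamp1, the abundant glycoprotein of the lysosomal membrane, had the most copies of the E-box of any member. The 91 bases before its start, chr8:13159070-13159160 on the plus strand and outside any annotated exon, hold 4 copies, marked in capitals.
Lamp1: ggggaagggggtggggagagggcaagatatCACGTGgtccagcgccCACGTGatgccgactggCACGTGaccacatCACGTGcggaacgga
The other 4 members with the 6-base form alone were Glb1, Gaa, Lgmn and Ctsl. Tfeb itself had no E-box in its window. A match describes these letters only, and binding was not measured.

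Macrophages gave the lysosome genes 1.79% of their UMIs at 1 week and 1.83% at 12 weeks. The same 36 genes took 0.312% and 0.290% in B cells, 0.184% and 0.229% in T cells, and 0.705% and 0.677% in dendritic cells. The order macrophages, dendritic cells, B cells, T cells was the same in both libraries. Levels are 3' end counts, and as a transcript gives 1 count whatever its length they are not divided by length.

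**Figure D1:**
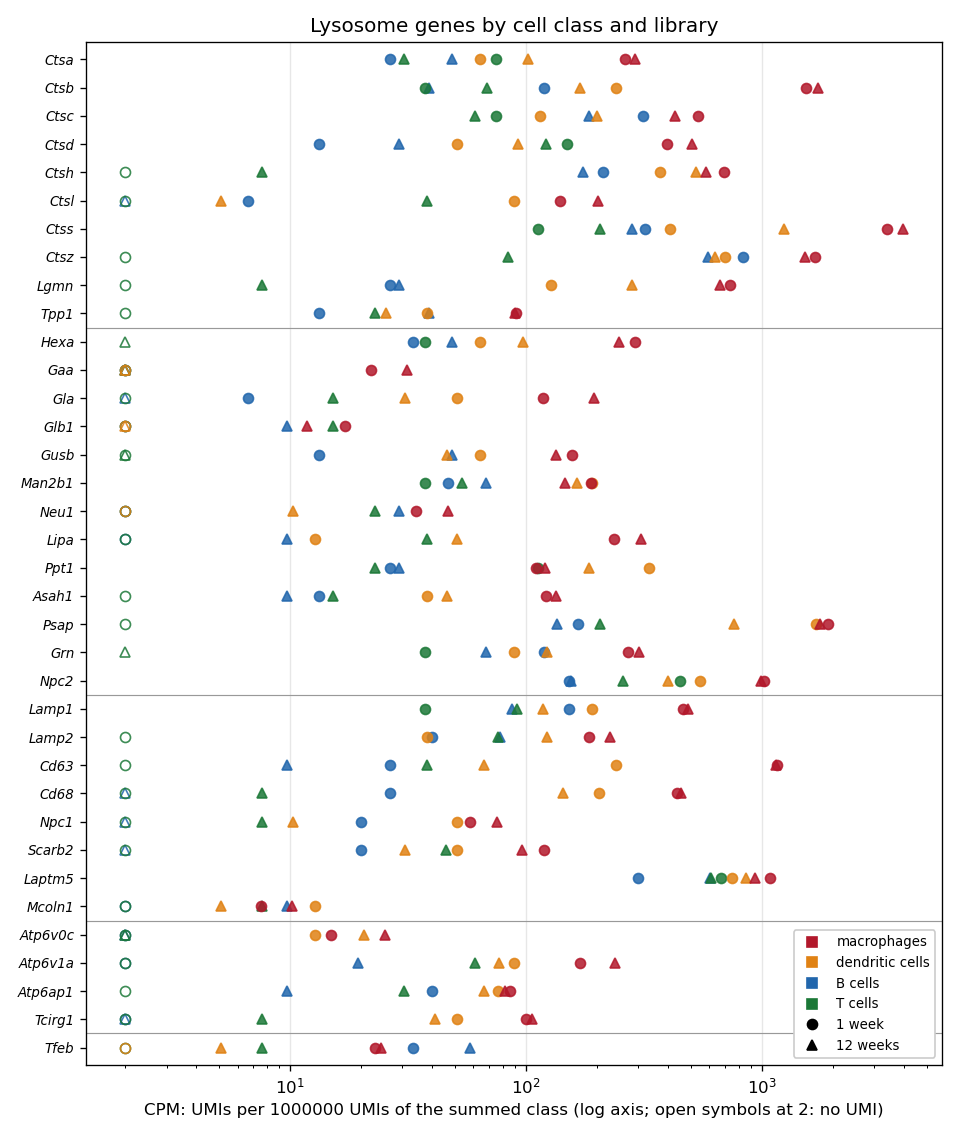
Level of each of the 36 lysosome genes (CPM of the summed class, log axis) in 4 cell classes (colours) and 2 libraries (circle 1 week, triangle 12 weeks), with open symbols where no UMI was counted and lines between the role groups. Macrophage symbols lie to the right for most genes, while Tfeb lies highest in B cells and Ppt1 in dendritic cells.

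Each class was summed within each library, and the 8 sums were compared by edgeR's quasi-likelihood test, blocked on the library. P-values were adjusted by Benjamini and Hochberg's method over 2560 genes. Shares and medians over all tested genes are for the 2543 that are not C1q or marker genes of the class rules. Of the members, 29 of 36 were abundant enough to test. Gaa, Npc1, Glb1, Neu1, Atp6v0c, Tfeb and Mcoln1 were not. Of the 29, 11 passed the low-count filter through the macrophage sums alone and so could only come out higher there. They were Ctsl, Tpp1, Hexa, Gla, Gusb, Lipa, Asah1, Cd63, Scarb2, Atp6ap1 and Tcirg1. All 29 tested members were higher in macrophages than in the mean of the other classes and none was lower, where 27.6% of all tested genes were higher and 8.34% lower. Their median log2 fold change was 3.08, against 0.10 over all tested genes. With Gusb and Tcirg1, each of which had no UMI in one class, set to the bound that 3 counts over the group allow, the median was 3.03. Among members with UMIs in every class the change ran from 1.07 ± 0.25 (SE) for Laptm5 to 5.03 ± 0.38 for Cd63. Against dendritic cells 23 of the 29 were higher and none lower, beside 14.0% and 6.49% of all tested genes, with a median log2 fold change of 1.78 against 0.16 over all genes. Of the 18 that also passed the filter through another class, all 18 were higher than the mean of the other classes and 13 were higher than dendritic cells. Against B cells and against T cells all 29 were higher, beside 24.6% and 22.3% of all genes. Only 13 of these had at least 10 UMIs in the B cells and 10 in the T cells. Over those, the log2 fold change lay between 1.13 and 4.50 against B cells and between 1.14 and 5.06 against T cells. Dendritic cells in turn had 14 of the 29 members above the mean of B and T cells and none below, beside 15.1% and 4.64% of all genes. The comparisons share the macrophage or dendritic sums and are not independent of each other.

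Among the proteases, Ctss was the most abundant member in macrophages. Cathepsin S is the cysteine protease that finishes invariant chain cleavage in antigen-presenting cells. Its gene lies at chr3:95526786-95556403 on the plus strand. It stood at 3394 and 3971 CPM in macrophages at 1 week and 12 weeks, at 407 and 1241 in dendritic cells, at 319 and 282 in B cells and at 112 and 206 in T cells. Both macrophage values lay above all 6 others, and the dendritic values differed most between the libraries. The log2 fold change was 2.52 ± 0.41 (SE) over dendritic cells and 3.76 ± 0.44 over B cells (edgeR adjusted p 0.0011 and 4.5e-05).

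Ctsb, encoding cathepsin B, which has both endopeptidase and carboxypeptidase activity, showed a wider gap. Its macrophage levels were 1536 and 1724 CPM, against 242 and 169 in dendritic cells, 120 and 38.8 in B cells and 37.5 and 68.6 in T cells. No other class overlapped macrophages, and the log2 fold change over dendritic cells was 3.34 ± 0.41 (SE; edgeR adjusted p 0.00021). Ctsd encodes the aspartic protease cathepsin D. It stood at 397 and 507 in macrophages, 50.9 and 92.3 in dendritic cells, 13.3 and 29.1 in B cells and 150 and 122 in T cells. It was the one cathepsin with a higher CPM in T cells than in dendritic cells in both libraries, but from few UMIs. T cells had 4 and 16 Ctsd UMIs, and dendritic cells 4 and 18. The log2 fold change of Ctsd was 2.90 ± 0.35 over dendritic cells and 2.32 ± 0.38 over T cells.

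Ctsz and Ctsh had the smallest changes of the proteases against dendritic cells. Cathepsin Z is a carboxypeptidase, and its gene stood at 1682 and 1525 CPM in macrophages, 700 and 636 in dendritic cells and 831 and 592 in B cells. In T cells it was at 0 and 83.9. B and dendritic values overlapped each other but not those of macrophages, and the log2 fold change was 1.37 ± 0.38 (SE) over B cells and 1.56 ± 0.38 over dendritic cells. Ctsh, for the aminopeptidase cathepsin H, was at 691 and 579 in macrophages and 369 and 528 in dendritic cells. That log2 difference of 0.76 ± 0.32 did not pass the test (edgeR adjusted p 0.12). In T cells Ctsh had 1 UMI in all.

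Ctsc encodes cathepsin C, the dipeptidyl peptidase that activates granule serine proteases. It stood at 539 and 430 CPM in macrophages, 313 and 184 in B cells and 115 and 200 in dendritic cells, and its log2 fold change over B cells, 1.13 ± 0.35, was the smallest of any protease. Lgmn, for the asparaginyl endopeptidase legumain that matures other cathepsins, stood at 730 and 664 in macrophages, 127 and 282 in dendritic cells and below 30 in the B and T sums. Its log2 fold change over dendritic cells was 2.02 ± 0.35 (edgeR adjusted p 0.0018). The remaining 3 proteases, Ctsa (the protective protein of the sialidase and galactosidase complex), Ctsl and Tpp1 (a tripeptidyl peptidase), lay between 90 and 291 in macrophages. They were higher than in dendritic cells by 1.98, 2.79 and 1.93 on the log2 scale. Ctsl had 7 and 1 UMIs in dendritic cells, and under DESeq2 neither Ctsl nor Tpp1 was called against dendritic cells.

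Of the hydrolases and activators, all 10 tested were higher in macrophages than in the mean of the other classes and 7 were higher than in dendritic cells. Of all tested genes, 27.6% and 14.0% were higher in these comparisons. Hexa, Gla, Gusb, Lipa and Asah1, all among the 7, passed the low-count filter through the macrophage sums alone and so could only come out higher. Psap encodes the precursor of the saposins, which present sphingolipids to their hydrolases. It was the second most abundant member at 1917 and 1756 CPM in macrophages. Dendritic cells had 1694 and 764, B cells 166 and 136, and T cells 0 and 206. The higher dendritic value came close to the macrophage levels, and the log2 difference of 0.95 ± 0.47 (SE) did not pass (edgeR adjusted p 0.19). With stricter cell filters it was 1.49 and passed (edgeR adjusted p 0.0031). Npc2, which carries cholesterol inside the lysosome, stood at 1018 and 996 in macrophages, 548 and 400 in dendritic cells, 153 and 155 in B cells and 450 and 259 in T cells. Its log2 fold change over dendritic cells was 1.42 ± 0.30.

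Lipa encodes the acid lipase that releases cholesterol from its esters, and of the hydrolases it separated macrophages from dendritic cells the most. It was at 237 and 308 CPM in macrophages and 12.7 and 51.3 in dendritic cells, so that the log2 fold change reached 3.23 ± 0.47 (SE) with an edgeR adjusted p of 0.00054. B cells had 1 Lipa UMI in all and T cells 5. Gla, for alpha-galactosidase A, which removes galactose from glycolipids, stood at 118 and 195 in macrophages and 50.9 and 30.8 in dendritic cells, 2.45 ± 0.46 on the log2 scale. Hexa (a subunit of beta-hexosaminidase), Gusb (beta-glucuronidase), Asah1 (acid ceramidase) and Grn (progranulin, a regulator of lysosomal enzymes) lay between 122 and 301 in macrophages. Over dendritic cells their log2 fold changes were 1.93, 1.77, 1.88 and 1.66. Gusb had no UMI in T cells and was at least 7.69-fold higher in macrophages, against a limit of 3 counts over both T sums.

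Man2b1 and Ppt1 departed from this pattern against dendritic cells. Man2b1, the lysosomal alpha-mannosidase, was at 189 and 147 CPM in macrophages and at 191 and 164 in dendritic cells. The log2 difference fitted with edgeR's scaling factors, which CPM does not use, had the other sign, at 0.22 ± 0.30 (SE; edgeR adjusted p 0.70). Ppt1 encodes palmitoyl-protein thioesterase, which strips fatty acids from proteins. It stood at 110 and 121 in macrophages and at 331 and 185 in dendritic cells, which rest on 26 and 36 UMIs. Both dendritic values lay above both macrophage values. The log2 difference of -0.76 ± 0.33 did not pass the test (edgeR adjusted p 0.14), but with classes taken from clusters it was -0.79 and passed (edgeR adjusted p 0.038).

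The 3 untested hydrolases were scarce. Gaa, for the acid glucosidase that degrades glycogen, was at 22.0 and 31.4 CPM in macrophages and had no UMI in the other 6 sums, where 3 counts over all the dendritic cells would come to 11.0. Neu1 (sialidase) was at 34.1 and 46.8 and Glb1 (beta-galactosidase) at 17.2 and 11.8 in macrophages. Glb1 had 3 UMIs in all outside macrophages, too few to place it.

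Cd63 had the largest difference from dendritic cells of any tested member, but it passed the low-count filter through the macrophage sums alone. It is a tetraspanin of late endosomes and lysosomes, with its gene at chr10:128900989-128912822 on the plus strand. Macrophages had 1156 and 1144 CPM, dendritic cells 242 and 66.7, B cells 26.6 and 9.71, and T cells 0 and 38.1. Macrophages lay above all 6 other values and dendritic cells above the B and T values, which overlapped each other. The log2 fold change over dendritic cells was 3.45 ± 0.48 (SE; edgeR adjusted p 0.00041). A Cd63 UMI was seen in only 11.1% of the 9 dendritic cells at 1 week and 12.5% of the 24 at 12 weeks. For B cells these shares were 17.4% and 3.85%, and for T cells 0% and 14.3%. The dendritic level and its place above B and T cells thus rest on few cells. Cd68, a glycoprotein of phagocyte lysosomes used as a macrophage marker, was at 436 and 455 in macrophages and 204 and 144 in dendritic cells, with 4 UMIs in B cells and 1 in T cells. Its log2 fold change over dendritic cells was 1.71 ± 0.38.

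Laptm5, a transmembrane protein of lysosomes in blood cells, had the smallest change of the tested members against the mean of the other classes. It stood at 1081 and 938 CPM in macrophages, 751 and 857 in dendritic cells, 299 and 602 in B cells and 674 and 610 in T cells. Macrophages were above the other classes in both libraries, and the change over dendritic cells of 0.64 ± 0.32 (SE) did not pass (edgeR adjusted p 0.19). Lamp1 and Lamp2, the principal glycoproteins of the membrane, were at 463 and 486 and at 186 and 228 in macrophages, with log2 fold changes over dendritic cells of 2.0 ± 0.37 and 1.59 ± 0.41. Scarb2, the receptor that carries glucocerebrosidase to the lysosome, was at 119 and 96.7 and 1.78 ± 0.54 higher than in dendritic cells on the log2 scale, a call lost under DESeq2 (adjusted p 0.078). Npc1, the membrane partner of Npc2, and Mcoln1, a calcium channel, were not tested, at 57.9 and 75.3 and at 7.54 and 10.2 in macrophages.

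The pump members were lower in level and differed among themselves. Atp6v1a, the catalytic subunit, stood at 170 and 239 CPM in macrophages and 89.1 and 76.9 in dendritic cells, which is 1.70 ± 0.43 (SE) on the log2 scale (edgeR adjusted p 0.013), a call lost under DESeq2 (adjusted p 0.059). Tcirg1, a membrane subunit of the proton channel, was at 100 and 106 in macrophages and 50.9 and 41.0 in dendritic cells, 1.53 ± 0.44 on the log2 scale. That call was lost under DESeq2 (adjusted p 0.13), without a count filter (edgeR adjusted p 0.053) and with stricter C1q limits (edgeR adjusted p 0.051). Tcirg1 had no UMI in B cells, against which macrophages were at least 8.70-fold higher by the limit of 3 counts over both B sums. Atp6ap1, an accessory subunit, was at 85.6 and 81.4 in macrophages and 76.4 and 66.7 in dendritic cells and did not pass there (0.53 ± 0.45, edgeR adjusted p 0.48). Atp6v0c, the ring subunit, was not tested, at 15 and 25.3 in macrophages.

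On the CPM scale Tfeb was the one member that stood below B cells in both libraries, as Man2b1 and Ppt1 stood below dendritic cells. It was at 33.3 and 58.3 CPM in B cells, from 5 and 6 UMIs, and at 23.0 and 24.4 in macrophages. It was at 0 and 5.13 in dendritic cells and 0 and 7.63 in T cells. It was too scarce to test. Counted by order alone, both macrophage values lay above both values of the other class for 34 of 36 members against B cells, 33 against T cells and 32 against dendritic cells. The same count was not made over all genes, so these numbers have no background beside them. Many of these orders also rest on few UMIs, as 24 of the 36 members had no UMI in the 1-week T cells.

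**Figure D2:**
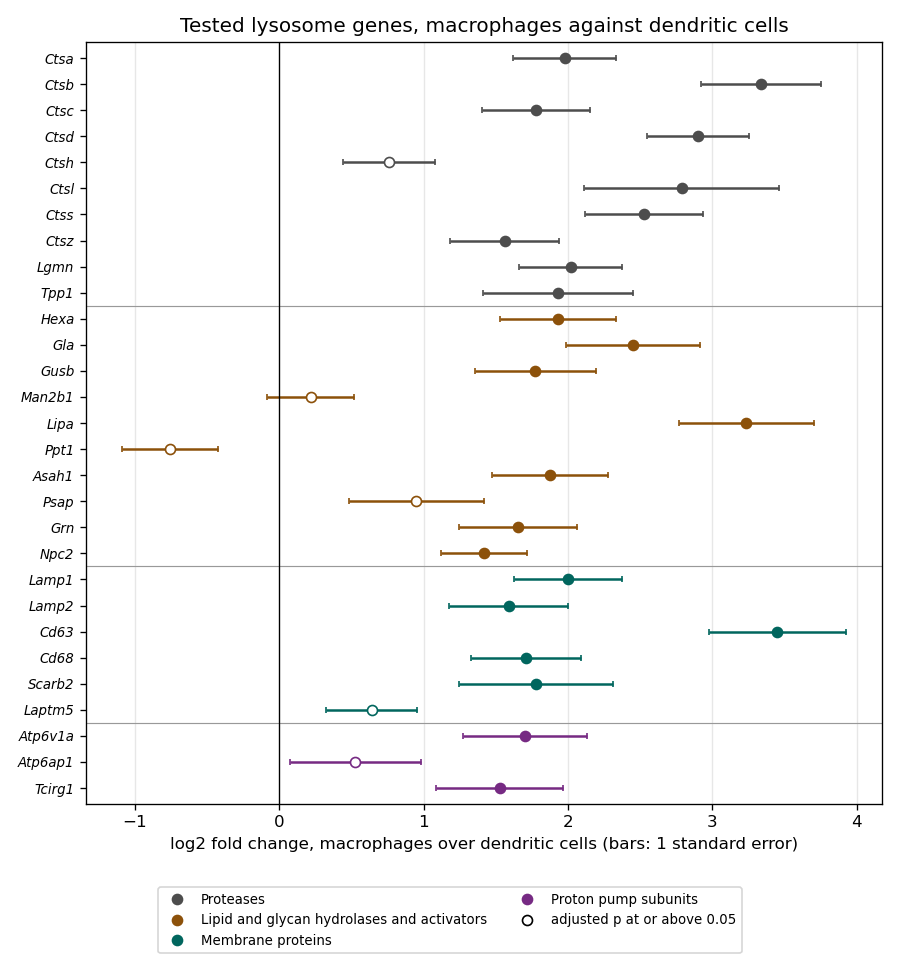
Log2 fold change of the 29 tested lysosome genes, macrophages over dendritic cells, with bars of 1 standard error from 2 libraries, coloured by role, with open symbols where the adjusted p is 0.05 or more. The 6 open symbols are Ctsh, Man2b1, Ppt1, Psap, Laptm5 and Atp6ap1, and only Ppt1 lies below 0.

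Other lysosomal genes were counted from companion lists. Of all tested genes, 27.6% were higher in macrophages than in the mean of the other classes and 8.34% were lower. Against dendritic cells these shares were 14.0% and 6.49%. How many companions passed the low-count filter through the macrophage sums alone was not counted. Of 13 other pump subunits 11 were tested, and all 11 were higher in macrophages than in the mean of the other classes, by a median of 1.36 on the log2 scale. Atp6v1c1 (2.49), Atp6v0b (1.74) and Atp6ap2 (1.69) led, and 4 of the 11 were also higher than in dendritic cells. Of 30 other hydrolases 8 were tested, of which 5 were higher and none lower. Among the 5 was Acp5, an acid phosphatase, higher by 2.66 ± 0.35 (SE). Gm2a, the activator protein for the breakdown of ganglioside GM2, went the other way against dendritic cells. It was at 246 and 203 CPM in macrophages and 662 and 826 in dendritic cells, and it was lower in macrophages by a log2 fold change of -1.44 ± 0.34 (edgeR adjusted p 0.0096). Hexa, a member, was 1.93 higher than in dendritic cells on the same scale.

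For the next lists, too, 27.6% of all tested genes were higher than in the mean of the other classes and 8.34% lower. Of 15 other membrane proteins only 4 were tested. Slc15a3, a peptide and histidine transporter (3.38), and Laptm4a (1.43) were higher, and Sidt2 was lower (-1.51 ± 0.48, edgeR adjusted p 0.026). Among the 6 genes for sorting enzymes to the lysosome, M6pr, a mannose 6-phosphate receptor, was the one tested and was higher by 1.5. Both tested cathepsin inhibitors of 5 listed, Cst3 (3.31) and Cstb (2.69), were higher than in the mean of the other classes. Cst3, the secreted inhibitor cystatin C, was at 7692 and 7729 CPM in macrophages and at 16860 and 12065 in dendritic cells, a log2 difference of -0.57 ± 0.28 that did not pass (edgeR adjusted p 0.18). Of the 8 relatives and regulators of Tfeb, 2 were tested and 1, Rragc, a GTPase that recruits Tfeb to the lysosome, was higher by 2.02.

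To compare single cells, each cell was thinned at random to 3000 UMIs. That left out 154 and 90 shallower macrophages and kept 1089 at 1 week and 1530 at 12 weeks. A macrophage then held a median of 54 member UMIs in both libraries, 1.80% of its UMIs, against 1.79% and 1.81% before thinning. The range was 1 to 156 at 1 week and 4 to 133 at 12 weeks, and the 10th and 90th percentiles were 37.8 and 72.2, and 40 and 71. The SD over cells was 15.3 and 13.6 UMIs, where binomial sampling of 3000 UMIs at the mean share gives 7.32 and 7.37. Spread between cells beyond sampling was therefore present in both libraries. A median of 17 and 18 of the 36 members was detected in a cell.

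B cells held medians of 10 and 9 member UMIs (21 and 16 cells), T cells 6.5 and 5.5 (4 and 16 cells), and dendritic cells 19 and 22 (9 and 23 cells). Of the macrophages, 99.2% and 99.8% exceeded the highest B cell, and 99.5% and 98.8% the highest T cell. Of dendritic cells the highest held 34 UMIs at 1 week and 52 at 12 weeks, and 93.2% and 55.8% of macrophages lay above it. The 12-week value turned on a single dendritic cell, which the plot of cells shows apart from the others.

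**Figure D3:**
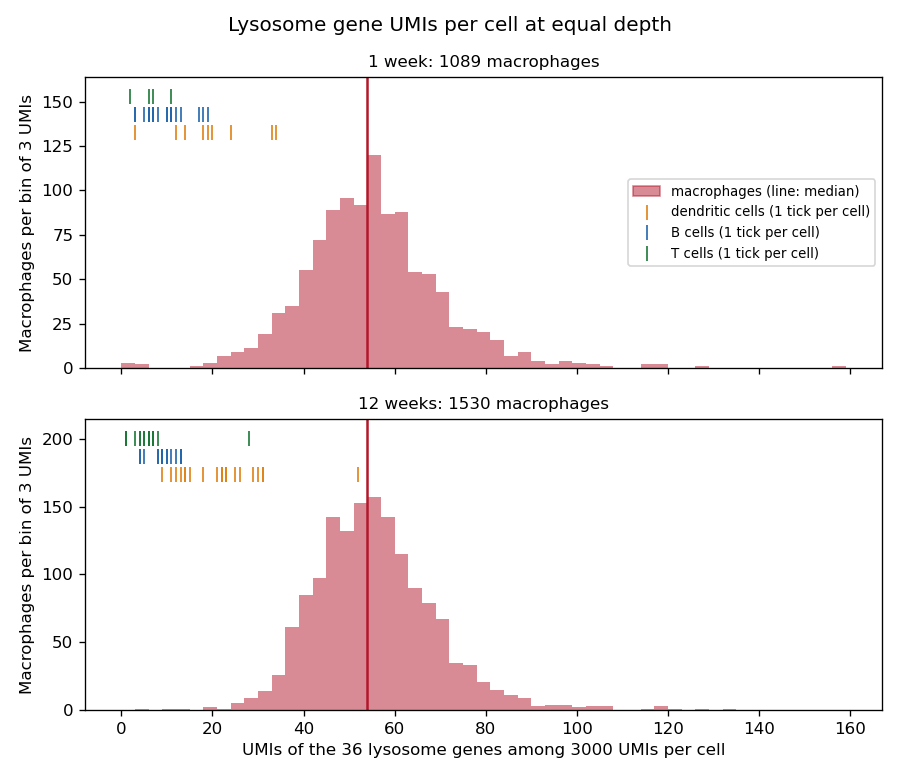
Member UMIs per cell after thinning to 3000 UMIs, as histograms of macrophages in bins of 3 UMIs (line: median, 54 in both libraries) with 1 tick per dendritic, B or T cell above them. B and T ticks sit at the low edge of the macrophage distribution, and dendritic ticks reach 34 at 1 week and 52 at 12 weeks.

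At that depth 6 members had a UMI in over 90% of macrophages of both libraries: Ctss (99.4% and 99.9%), Psap, Npc2, Ctsz, Ctsb and Laptm5. In T cells, which were the poorest class, Ctss was seen in 0 of 4 cells and in 31.2% of 16. Of B cells, 81.0% and 87.5% had a Ctsz UMI and 14.3% and 6.25% a Ctsb UMI, so the classes separated by Ctsb far more than by Ctsz. Gaa, Glb1, Mcoln1, Atp6v0c and Tfeb had a UMI in under 10% of macrophages in both libraries. For 11 members the variance over mean was under 1.1 in both libraries, close to that of counting alone. They include Mcoln1, at a mean of 0.023 and 0.035 UMIs, and Ctsa, at 0.81 and 0.86. At the lower of these means the ratio stays near 1 whether or not cells differ, so it cannot show their spread.

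Among single members, Ctsd varied most from cell to cell at 1 week. It had a variance over mean of 3.76 and 2.40, with a mean of 1.21 and 1.56 UMIs and a highest cell of 27 and 23. A Ctsd UMI was seen in 54.8% and 66.9% of macrophages. Ctsb (2.16 and 2.18) and Ctss (2.11 and 2.04) were the other members at 2 or more in both libraries, at higher means of 4.70 and 5.23 and of 10.5 and 12.0 UMIs. Cd63 reached 2.14 and 1.81. Ctsl, at 1.44 and 2.39, differed between the libraries, and its highest cell held 7 and 14 UMIs.

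Members rose and fell together only weakly, as sparse counts allow. Over the 630 pairs the median Pearson correlation across macrophages was 0.026 at 1 week (1089 cells) and 0.019 at 12 weeks (1530 cells). The 5 highest pairs, by the lower of the 2 libraries, were Ctsb with Cd63 (0.29 and 0.21), Ctsb with Ctsd (0.25 and 0.19), Ctsb with Psap (0.23 and 0.17), Ctss with Npc2 (0.20 and 0.16) and Ctsb with Lipa (0.21 and 0.16). The 2 lowest were Ctsc with Cd63 (-0.12 and -0.02) and Ctsc with Gla (-0.11 and -0.07). Ctsb thus stood in 4 of the 5 highest pairs and Ctsc in both of the lowest. Summed by role, proteases correlated with hydrolases at 0.48 and 0.33 and with membrane proteins at 0.47 and 0.31, but with pump subunits at 0.15 and 0.06, where few UMIs were counted.

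Macrophages with more member UMIs also held more UMIs of other macrophage genes. The member sum correlated with the C1q genes that define the class at 0.42 and 0.28, with other macrophage markers at 0.45 and 0.23, and with MHC class II genes at 0.46 and 0.17. With endocrine transcripts it correlated at -0.22 and -0.03, with ribosomal protein genes at -0.12 and -0.29, with the cell's own UMI total before thinning at -0.13 and -0.12, and with heat shock genes at -0.05 and -0.02. Among 599 other genes with a mean of at least 0.5 thinned UMIs, Cst3 was the most correlated (0.40 and 0.30). C1qa, B2m, Tyrobp, Itm2b, C1qc, C1qb, H2-Aa, Apoe and Mpeg1 followed, the last at 0.23 and 0.19. These genes share the libraries and the fixed total of 3000 UMIs, and what part mixed droplets or free RNA have in these values was not tested.

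Between the time labels the member sum did not move, but single members did. With 1 library a label no test was possible, and the intervals below cover counting error only. Ratios of 12 weeks over 1 week in macrophages ran from 0.69 to 1.69 with a median of 1.06, where the median of 7597 genes with at least 50 UMIs in each library was 0.97. A ratio of at least 1.5 was reached by 2 of 36 members, beside 4.65% of all genes, and none fell to 1/1.5 or lower, beside 5.4%. The members' counts were thus near the background.

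The 2 were Atp6v0c at 1.69 (95% interval 1.39 to 2.05), which rose from 171 to 290 UMIs, and Gla at 1.65 (1.54 to 1.77), from 1344 to 2229. Ctsl (1.46), Gaa (1.43) and Atp6v1a (1.40) came next. At the other end stood Glb1 at 0.69 (0.55 to 0.86), Man2b1 at 0.78, Ctsc at 0.80 and Scarb2 at 0.81. Of the most abundant members, Ctss was at 1.17, Ctsb at 1.12, Psap at 0.92 and Ctsz at 0.91.

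**Figure D4:**
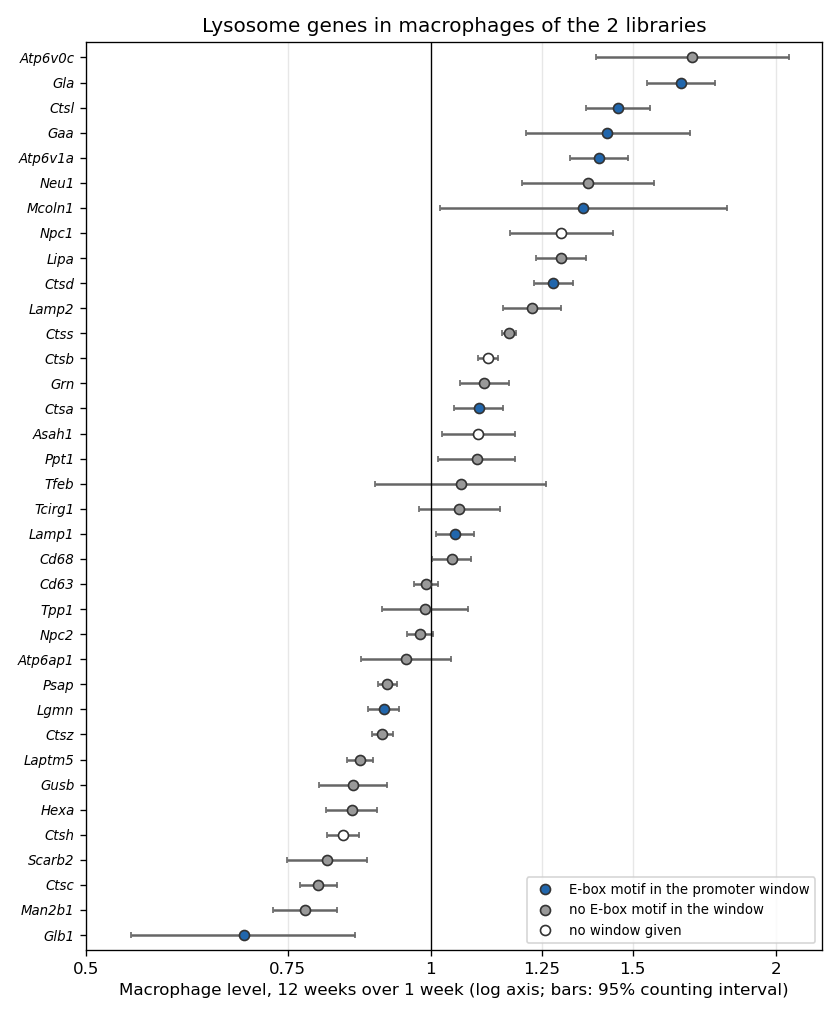
Ratio of the 12-week over the 1-week macrophage level of each lysosome gene (log axis), with bars of the 95% counting interval from 1 library a label, coloured by whether a promoter window holds the E-box. Ratios run from 0.69 for Glb1 to 1.69 for Atp6v0c, and 8 of the 10 members with the motif lie above 1. Beside them, 10 of the 22 members with a window and no motif and 403 of all 820 genes with the motif lie above 1.

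Of 16 pump subunits compared, members and companions together, 14 had a ratio above 1 and 4 a ratio of at least 1.5, with a median of 1.21. Over all genes 3362 of 7597 had a ratio above 1, and the difference was not tested. Besides Atp6v0c these were Atp6v0a1 (1.61), Atp6v1c1 (1.54) and Atp6v0d1 (1.52). Of the other companions, Laptm4b (1.70) and Scpep1 (1.53) were past 1.5, and Acp5 was at 0.73. The 25 other hydrolases compared had a median of 0.93, below that of all genes.

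The 10 members with CACGTG in a promoter window had a median ratio of 1.32, and the 22 with a window without it 0.99. All 5 with TCACGTGA, printed above, were above 1: Gla 1.65, Atp6v1a 1.40, Mcoln1 1.36, Ctsd 1.28 and Ctsa 1.1. Lamp1, with 4 copies of the shorter form, was at 1.05, and Glb1 and Lgmn, with 1 copy each, were at 0.69 and 0.91. Of all genes compared, a ratio above 1 was found in 113 of the 178 with TCACGTGA and 403 of the 820 with CACGTG. Over all genes it was the 3362 of 7597 given above. The median was 1.09 for those 178, 0.99 for the 820 with CACGTG and 0.96 for the 5244 without. The highest member, Atp6v0c, had no such motif in its window. A ratio of at least 1.5 was reached by 1 of the 10 members with CACGTG and 1 of the 22 without. None of these differences was tested. The 2 macrophage sums also differed in heat shock transcripts, at 5122 and 11172 CPM, and in endocrine transcripts, at 19789 and 5771, and their part in these ratios was not tested.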

How the data were processed

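The authors deposited whole-number UMI counts for each gene in each barcode. Cell Ranger and mm10 are named in the submitters' processing notes, and version 3.1.0 is per the file headers. The rule that called barcodes as cells was not given in the sources used here. Kept barcodes had 500 or more genes, 1000 or more UMIs and no more than 10% of UMIs from mitochondrial genes. Total counts were 12858754 UMIs over 1551 barcodes at 1 week and 12448628 over 1867 at 12 weeks. No doublet caller was run. Droplets meeting 2 marker rules were counted instead, and were left out in one alternative. Counts were summed per class and library and tested with edgeR 4.0.16 (TMM factors, its filter on low counts, quasi-likelihood, library as block, Benjamini-Hochberg adjustment, threshold 0.05, 3 residual degrees of freedom). C1q and marker genes of the class rules were tested with the others but left out of the shares and medians over all tested genes. Nothing says that cells of a library came from more than 1 pool. With the library as block, p-values measure how much class differences vary between the 2 pools, with the spread shared over all classes. They do not measure the mean difference between the pools. Intervals are exact at 95% and cover counting error only. Clustering for 1 alternative used scanpy 1.11.5. The tests were checked on simulated counts. Gene positions are from GENCODE on GRCm38, which mm10 names, and promoter windows from RefSeq on GRCm38.p6.

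Alternatives were DESeq2 1.42.0, other scaling factors, no count filter, no block, stricter class and cell filters, no mixed droplets, classes from clusters, other thinning depths and leaving out each library. Leaving out the 1-week T cells was added after the data were seen. The members and the companion lists were chosen with earlier results of these data known. All members are accounted for. Of each companion list, up to 3 called genes with the largest change and at least 10 UMIs in both summed groups are named, and any called against its list; some of these are not reported here. Also named are the 10 genes that correlated most with the member sum, and the 5 highest and 2 lowest member pairs. Gm2a, Cst3 against dendritic cells, and the companions named for their time ratio were chosen after their values were seen.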

Additional observations from a re-analysis of the deposited data

Results flagged for a closer look

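Ppt1, for palmitoyl-protein thioesterase, differed in direction between the libraries in one comparison. The log2 difference of macrophages from T cells was -0.03 at 1 week and 2.40 at 12 weeks, with counts under 3 set to 3. The 1-week value rests on 3 Ppt1 UMIs among 26690 in the T cells there, and the 12-week value on 3 UMIs among 131139. The difference between the libraries was not tested.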

How the results depend on the processing

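Only 2 profiles a class were available: T cells at 1 week gave 26690 UMIs, and folds against classes with few UMIs move with single counts. The number of members higher in macrophages than in the mean of the other classes was 29 of 29 without the replicate block, 28 under DESeq2, 33 of 36 without a count filter and 29 of 30 with classes from clusters. Against dendritic cells it was 23 of 29 without the block, so the pairing by library changed neither count. It was 18 under DESeq2, where Ctsl, Tpp1, Scarb2, Atp6v1a and Tcirg1 were lost, and Tcirg1 was also lost without a count filter and with stricter C1q limits. Ppt1 lost its call against the mean of the other classes under DESeq2 (adjusted p 0.062) and with clusters (edgeR adjusted p 0.061). Psap gained its call against dendritic cells with stricter cell filters and without the 1-week T cells. With clusters, 1 member (Ppt1) was lower in macrophages than in dendritic cells. Median log2 fold changes moved with the choice of cells. With stricter cell filters, which left 25 members tested and dropped the 1-week T cells, they were 4.48 against the mean of the others, 3.88 against B cells, 4.72 against T cells and 2.85 for dendritic cells over the mean of B and T cells. With classes from clusters they were 2.49 against the mean, 1.35 against dendritic cells and 2.71 against B cells. With stricter C1q limits they were 4.72 against T cells and 2.19 for dendritic cells over B and T cells. Leaving out each library in turn gives a log2 ratio of CPM from 1 library, without edgeR's scaling factors and with no test. Counts under 3 were set to 3, which is 112 CPM in the 1-week T cells, where 24 of 36 members had no UMI. The median of that ratio was 1.64 to 2.27 against the mean of the others, 1.26 to 1.5 against dendritic cells, 2.35 to 2.61 against B cells, 1.18 to 2.56 against T cells, and 0.54 to 1.00 for dendritic cells over B and T cells. On that scale Man2b1 stood below dendritic cells, at -0.16 without the 1-week library and -0.014 without the 12-week library. The cause of these shifts was not tested. No paired analysis was possible between the time labels because each has 1 library. The other 156 summary values kept their direction and stayed within set limits of size, among them the median of 1.80% member UMIs per macrophage at 1 week. For a number of called members the limit was 1.5-fold, so the 18 under DESeq2 given above count as within it. For a median log2 fold change it was the SD of the 2 single-library medians.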
